A study of Mus musculus with 9 samples.

Results

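The granins, Vgf and the enzymes that process prohormones were followed here in the hippocampus of mice that carry an overactive form of the kinase BRAF. The set held 10 genes, taken by name, and all 10 were among the 18275 genes of the deposited table and among the 16196 that were abundant enough to be tested. They were the granins Chga, Chgb, Scg2 and Scg3, the granin-like precursor Vgf, the prohormone convertases Pcsk1 and Pcsk2, their small binding partners Pcsk1n and Scg5, and the carboxypeptidase Cpe. Hippocampal mRNA of adult C57BL/6N mice was sequenced to ask which transcripts the mutation alters. There were 4 Nestin;BrafKE/+ libraries and 5 libraries of Braf+/+ littermate controls. Nestin;BrafKE/+ mice are heterozygous for a floxed knock-in allele that yields BRAF with the K499E change once Cre has acted, and Cre is driven by the Nestin promoter, which is on in neural stem cells of the embryo, so that neurons and glia both descend from recombined cells. Per the study's methods the mice were male, with as many mice of each genotype as there are libraries.

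Neurons and endocrine cells store peptides in dense-core vesicles. Granins are acidic secretory proteins that gather in these vesicles and are themselves cut into peptides. The convertases encoded by Pcsk1 and Pcsk2 cut prohormones after pairs of basic residues, and the carboxypeptidase encoded by Cpe then removes those residues. Scg5 encodes 7B2, which the Pcsk2 product needs to mature, and Pcsk1n encodes proSAAS, which can inhibit the Pcsk1 product. Vgf was named as a nerve growth factor-inducible gene, and growth factors and neuronal activity are known to raise it.

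Several of these genes are textbook targets of CREB, a factor that binds the cAMP response element TGACGTCA. The promoter stretch around that element is therefore shown for the members that hold it, with Chga, whose element departs from the full form after its core. RefSeq promoter sequences (table build GRCm38.p6) were matched for 8 of the 10 genes, and Vgf and Cpe had no entry. Capitals mark the element or, for Chga, the 5-base core TGACG, and each stretch is written 5′ to 3′ on the strand of its gene.
Scg2: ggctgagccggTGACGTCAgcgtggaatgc
Chgb: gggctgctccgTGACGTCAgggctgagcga
Pcsk1: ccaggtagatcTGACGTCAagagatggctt
Chga: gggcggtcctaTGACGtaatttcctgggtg
On GRCm39 these stretches were found at chr1:79417793-79417822 (minus strand) for Scg2, chr2:132623479-132623508 (plus strand) for Chgb, chr13:75237887-75237916 (plus strand) for Pcsk1 and chr12:102521145-102521174 (plus strand) for Chga. The element began 68, 72 and 78 bases before the RefSeq start of Scg2, Chgb and Pcsk1, and the Chga core began 44 bases before its start. In Gencode vM39 the stretches of Scg2, Chgb and Chga overlapped an exon of the canonical transcript, whereas that of Pcsk1 was centred 43 bases upstream of it. Both strands of the 250 bases before each start were searched. TGACGTCA was found in 3 of the 8 members with a promoter entry, against 1.55% of all 32851 promoters. TGACG, which is also part of the full element, was found in 7 of 8, against 17.8%. Of the genes with the full element Pcsk1 was lower in the mutants, and Scg2 and Chgb did not pass the test.

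The values were normalised by the authors and summed to between 19550000 and 20090000 per library. Library names carried 4 prefixes and were grouped here into 3 series. The 2 numeric prefixes were pooled as A (Nestin;BrafKE/+ replicate 1, Braf+/+ replicates 1 to 3). The others were B (Nestin;BrafKE/+ replicates 2 and 3, Braf+/+ replicate 4) and C (Nestin;BrafKE/+ replicate 4, Braf+/+ replicate 5). What a prefix or a series stands for is not given in the sources used here. The 2 libraries of series C mirrored each other across genes in their deviations from the group means (r = -0.997). The authors adjusted for batches before their own test, and whether the deposited values carry that adjustment is not given in the sources used here. Log2 fold changes fitted with and without a term for series were nearly the same. They were 0.8211 and 0.8215 for Vgf, -0.5919 and -0.5912 for Pcsk1, and 0.4521 and 0.4525 for Cpe. The part of the authors' adjustment in this likeness, in the mirroring and in the permutations over all splits was not tested. Summed choroid plexus markers, a sign of tissue next to the hippocampus, reached 390174 in Braf+/+ replicate 2 and 113038 in Braf+/+ replicate 4, and lay between 1346 and 24207 in the other 7 libraries. Braf itself was lower in Nestin;BrafKE/+ (2264 ± 144, SD, n = 4) than in Braf+/+ libraries (2786 ± 153, SD, n = 5), with a log2 fold change of -0.30 (SE 0.07, limma adjusted p = 0.0378) that passed in 2 of 9 refits with 1 library omitted. That level does not check the genotype, because the values do not separate the alleles.

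Of the 10 genes, 4 changed. Vgf and Cpe rose, Pcsk1 and Pcsk2 fell, and the 6 others did not pass the test. The test was limma on log2(value + 1) with terms for genotype and series, and p-values were adjusted over all 16196 genes at a threshold of 0.05. Of all genes tested, 2.88% of genes passed, 1.52% higher and 1.36% lower. The values of the 2 genotypes did not overlap for these same 4 genes, and 15.7% of all genes tested had no overlap. The set was put together with results of these data known, so these shares stand beside the count as a description. At an unadjusted p under 0.05, 5 of the 10 passed, against 18.5% of all genes. The median log2 fold change of the 10 was 0.07, beside 0.00 for all genes. The median size of the change regardless of sign was 0.16, beside 0.12 for all genes.

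Per length, these transcripts spanned a wide range. Per kb of canonical transcript, the mean level in Braf+/+ libraries was 23887 for Cpe, which was by far the most abundant. Pcsk1n (3098), Chgb (2742), Scg5 (2306), Scg3 (1798), Scg2 (1367), Vgf (1127) and Chga (1007) followed, then the convertases Pcsk2 (835) and Pcsk1 (107). The ranges of the control libraries overlapped between Pcsk1n and Chgb, Chgb and Scg5, and Vgf and Chga, and those of the other neighbours did not overlap. Ranges do not compare genes within a library, so they alone do not order the neighbours that overlapped. In Nestin;BrafKE/+ libraries Vgf stood at 1988 per kb, which placed it above Scg2 (1442) and next to Scg3 (2061). Pcsk1 stood there at 71.1 and Pcsk2 at 640.

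**Figure D1:**
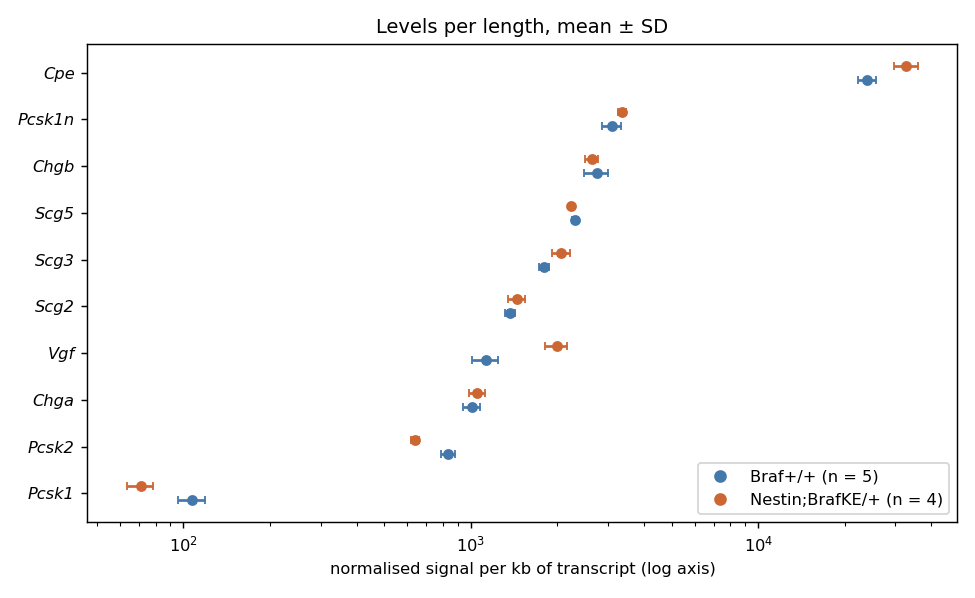
Mean normalised signal per kb of canonical transcript (log axis) of the 10 genes in Braf+/+ (blue, n = 5) and Nestin;BrafKE/+ (orange, n = 4) libraries, with SD bars. Cpe lies far above the rest and Pcsk1 far below, and the groups stand apart for Vgf, Cpe, Pcsk1 and Pcsk2.

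Vgf (ENSMUSG00000037428, GRCm39 chr5:137055246-137062205, plus strand) encodes a secreted precursor of several neuropeptides. Its normalised signal was 5553, 4965, 5388 and 4548 in Nestin;BrafKE/+ replicates 1 to 4. In Braf+/+ replicates 1 to 5 it was 2891, 2439, 3119, 2804 and 3237. The lowest mutant library stood well above the highest control, and Braf+/+ replicate 2, the library richest in choroid plexus markers, was the lowest of all. The means were 5113 ± 451 and 2898 ± 309 (SD), a rise of 76.7% and a log2 fold change of 0.82 (SE 0.09, 95% interval 0.61 to 1.03, limma adjusted p = 0.00261). Within series A, B and C the log2 differences were 0.99, 0.88 and 0.49. A two-sided exact permutation test over the 24 splits within series gave p = 0.0417 and over all 126 splits p = 0.00794, the smallest that each can give. Groups that do not overlap put such a p at or near its smallest value. Here and for the other called genes it therefore adds little to the lack of overlap. Vgf passed whichever single library was left out, and came nearest to the threshold (adjusted p = 0.0496) when that was Nestin;BrafKE/+ replicate 1.

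The 4 other granins did not pass the test. Chga encodes chromogranin A, the best known granin, and its signal ran from 1934 to 2239 in mutant and from 1788 to 2123 in control libraries. The log2 fold change of Chga was 0.06 (95% interval -0.10 to 0.22, limma adjusted p = 0.700), and its series disagreed, with -0.01 in A, 0.26 in B and -0.10 in C. Chgb, which encodes chromogranin B, ran from 9039 to 10199 and from 8447 to 10979, a log2 fold change of -0.06 (95% interval -0.23 to 0.12, limma adjusted p = 0.758). Its lowest value was again in Braf+/+ replicate 2. Scg2 encodes secretogranin II, the precursor of secretoneurin. It ran from 3410 to 3853 and from 3306 to 3650, a log2 fold change of 0.07 (95% interval -0.06 to 0.21, limma adjusted p = 0.553). The intervals of these 3 genes end well short of the lower bound for Vgf.

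Scg3, whose product helps to sort other granins into vesicles, came closest to the threshold among the genes that missed it. Its signal was 6656, 5683, 6568 and 6396 in the mutant libraries. In the controls it was 5245, 5542, 5469, 5896 and 5450. Nestin;BrafKE/+ replicate 2 lay within the control range and the 3 other mutant libraries lay above it. The log2 fold change was 0.19 (SE 0.06, 95% interval 0.06 to 0.33, limma adjusted p = 0.129), and the series gave 0.30, 0.05 and 0.23. Without Nestin;BrafKE/+ replicate 2 the log2 fold change was 0.24 and the adjusted p was 0.0458.

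The make-up of the granin pool differed with Vgf. Per kb, Vgf made up 21.6% ± 1.22 (SD, n = 4) of the summed signal of Vgf, Chga, Chgb, Scg2 and Scg3 in Nestin;BrafKE/+ libraries and 14.0% ± 0.92 (SD, n = 5) in Braf+/+ libraries, and the groups did not overlap. Chgb held the largest share in every library, at 26.4% to 31.1% in mutants and 31.3% to 36.8% in controls. The summed level per kb was 8832 to 9471 in mutants and 7404 to 8328 in controls. These shares depend on one another and on the Vgf values above, and were not tested.

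**Figure D2:**
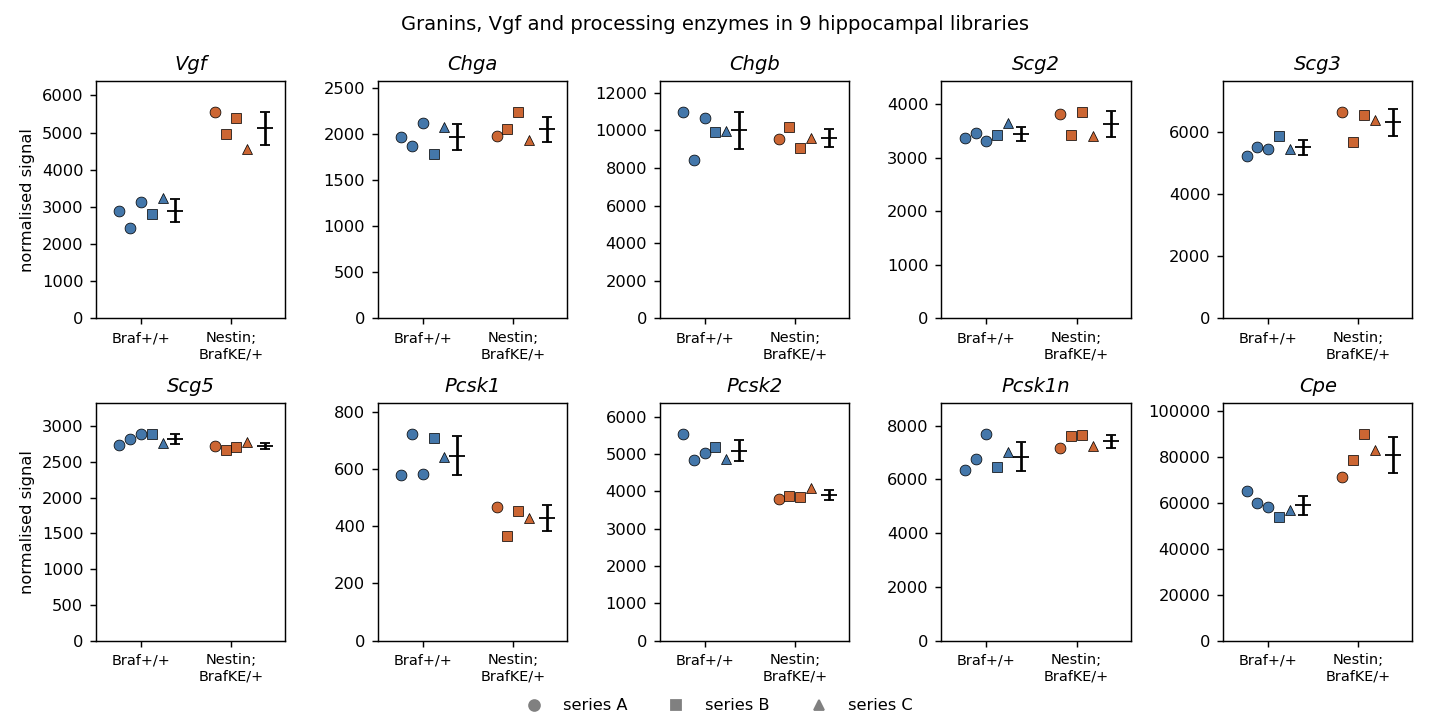
Normalised signal of each gene (vertical axes start at 0) in every Braf+/+ (blue) and Nestin;BrafKE/+ (orange) library, with the marker shape giving the series and the bar giving mean ± SD. Mutant and control points separate for Vgf (4548 to 5553 against 2439 to 3237), Cpe, Pcsk1 and Pcsk2, and overlap for the 6 other genes.

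Both neuronal convertases fell. Pcsk1 (ENSMUSG00000021587, GRCm39 chr13:75237284-75284898, plus strand) encodes PC1/3, which usually makes the first cuts in a prohormone. Its signal was 467, 365, 452 and 429 in the mutant libraries. In the control libraries it was 577, 721, 580, 709 and 640. Every mutant library lay below every control, and the 2 controls richest in choroid plexus markers, replicates 2 and 4, were the highest. The means were 428 ± 45.2 and 645 ± 68.3 (SD), a fall of 33.7% and a log2 fold change of -0.59 (SE 0.11, 95% interval -0.84 to -0.35, limma adjusted p = 0.0202). Series A, B and C gave -0.42, -0.80 and -0.58, and the exact permutation p was 0.0417 within series and 0.00794 over all splits. The call for Pcsk1 was lost without Nestin;BrafKE/+ replicate 1 (log2 fold change -0.71, adjusted p = 0.0676), without Nestin;BrafKE/+ replicate 4 (-0.60, 0.0552), without Braf+/+ replicate 4 (-0.48, 0.142) and without Braf+/+ replicate 5 (-0.60, 0.0563). It held without Braf+/+ replicate 2 (-0.56, 0.0339), and it missed the threshold when the 4 name prefixes replaced the 3 series (-0.59, 0.0594).

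Pcsk2 (ENSMUSG00000027419, GRCm39 chr2:143387993-143659507, plus strand) encodes PC2, which carries out later cuts. Its signal was 3804, 3871, 3845 and 4084 in the mutant libraries. The control libraries gave 5531, 4836, 5028, 5198 and 4859. The mutant values were close together and all lay below the controls. The means were 3901 ± 125 (SD, n = 4) and 5090 ± 287 (SD, n = 5), a fall of 23.3% and a log2 fold change of -0.38 (SE 0.06, 95% interval -0.51 to -0.26, limma adjusted p = 0.00756). Series A, B and C gave -0.43, -0.43 and -0.25, and the exact permutation p was again the smallest possible, 0.0417 within series and 0.00794 over all splits. The call was lost when Nestin;BrafKE/+ replicate 1 (-0.35, adjusted p = 0.0808) or Braf+/+ replicate 4 (-0.36, 0.0590) was left out. Non-coding genes on the opposite strand overlap Pcsk2, and the library kit keeps strand, but whether strand was used in counting is not given in the sources used here.

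Neither convertase partner passed the test. Scg5 ran from 2666 to 2784 in mutant and from 2741 to 2890 in control libraries, with 3 mutant libraries below every control. Its log2 fold change was -0.05 (95% interval -0.15 to 0.05, limma adjusted p = 0.615), and the lower bound stayed above the upper bound for Pcsk2. Pcsk1n ran from 7158 to 7642 and from 6337 to 7686, with a log2 fold change of 0.12 (95% interval -0.03 to 0.26, limma adjusted p = 0.381).

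Cpe (ENSMUSG00000037852, GRCm39 chr8:65045555-65146435, minus strand) encodes carboxypeptidase E, which acts after the convertases and also occurs in glia. Its signal was 71166, 78659, 89915 and 82906 in the mutant libraries. The control libraries gave 65332, 59999, 58279, 53688 and 56984. The groups did not overlap, and the lowest mutant and the highest control, which were nearest to each other, both belong to series A. The means were 80662 ± 7849 (SD, n = 4) and 58857 ± 4295 (SD, n = 5), a rise of 36.8% and a log2 fold change of 0.45 (SE 0.08, 95% interval 0.27 to 0.64, limma adjusted p = 0.0195). Series A, B and C gave 0.22, 0.65 and 0.54, and the exact permutation p was 0.0417 within series and 0.00794 over all splits. Cpe was 13th of the genes tested by signal and took 0.361% to 0.454% of a mutant library against 0.272% to 0.333% of a control library. The call was lost when Nestin;BrafKE/+ replicate 4 (0.42, adjusted p = 0.0623), Braf+/+ replicate 4 (0.35, 0.126) or Braf+/+ replicate 5 (0.42, 0.0625) was left out.

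**Figure D3:**
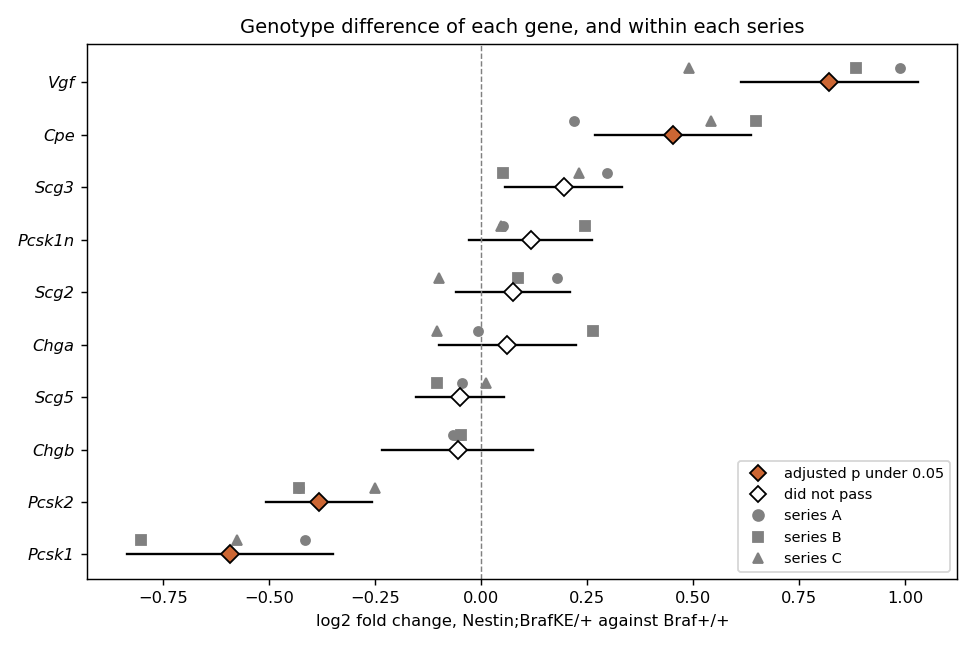
Log2 fold change of each gene between Nestin;BrafKE/+ and Braf+/+ libraries (diamonds, filled where the adjusted p was under 0.05) with its 95% interval, and the difference within series A, B and C (grey markers). Vgf at 0.82 and Cpe at 0.45 lie to the right in all 3 series, and Pcsk1 at -0.59 and Pcsk2 at -0.38 to the left.

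Whether genes of the set differed in their response was tested for 4 pairs of genes on the log2 ratio within each library. The ratio of Vgf to Chga was higher in mutants by 0.76 and that of Vgf to Scg2 by 0.75. The ratio of Pcsk1 to Pcsk1n was lower by 0.71, that is, the difference was -0.71. For these 3 pairs a two-sided exact permutation test over the 24 splits in series gave its smallest possible p, 0.0417. After adjustment over the 4 pairs it was 0.0556, so none passed. A pair could have passed only if all 4 had reached that smallest p, so this miss cannot decide whether the ratios differ. Over all 126 splits the adjusted exact permutation p was 0.0159 for both Vgf ratios and 0.0212 for Pcsk1 to Pcsk1n. The fall of Pcsk1 was not shown to differ from that of Pcsk2, with a difference of -0.21 (exact permutation over the splits in series, p = 0.333). The ratio of Vgf to Pcsk1 signal ran from 10.6 to 13.6 in mutant and from 3.38 to 5.37 in control libraries.

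These are bulk samples, in which fewer cells of a type and less RNA per cell cannot be told apart. Markers of neurons and glia were summed in each library. Of 6 pan-neuronal markers 0 passed by limma, 3 had an unadjusted p under 0.05, and their sum ran from 113430 to 115711 in mutant and from 116703 to 122661 in control libraries, beside the lower Pcsk1 and Pcsk2. The median log2 fold change of these neuronal markers was -0.06, and they were split, with Syt1 (-0.18), Rbfox3 (-0.16) and Snap25 (-0.12) below 0 and Eno2 (0.06), Tubb3 (0.05) and Map2 (0.00) at or above it. Of 6 excitatory neuron markers 0 passed by limma, 2 had an unadjusted p under 0.05 and 4 were above 0, with a median of 0.11 and a sum of 130783 to 153876 against 120734 to 136595. Of 6 inhibitory neuron markers 0 passed by limma, 1 had an unadjusted p under 0.05 and all 6 were above 0, with a median of 0.08 and a sum of 11991 to 14214 against 11538 to 12665. Of 6 oligodendrocyte markers 3 passed higher, and their sum ran from 117655 to 127363 against 85967 to 103869, beside the higher Vgf and Cpe, with a median of 0.36. Of 6 astrocyte markers 0 passed by limma, and the median was 0.23, also beside the higher Vgf and Cpe. An unadjusted p under 0.05 was reached by 4 of them, all with higher values, namely Gjb6 (0.33), Aldh1l1 (0.31), Aqp4 (0.25) and Slc1a3 (0.20). The astrocyte sum ran from 83743 to 92999 against 81827 to 94058, and most of it was Slc1a2 (log2 fold change -0.06), at 58288 to 66648 against 59327 to 71030. Which of these cells carried each gene was not measured, and markers of the hippocampal fields are given at the end. The part of these cell types in the results was not tested. Without Braf+/+ replicate 2, the library richest in choroid plexus markers, 4 members passed as before, and without Braf+/+ replicate 4, the only control of series B, 1 did. Of 6 hypothalamic and pituitary hormone genes, among them Oxt and Prl, 0 were in the table.

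Vgf was most alike, among 11881 genes with a mean of at least 100, to Arc, Gjb1, Kcnip1, Klk8 and Cdh4. Likeness was the root mean square difference between log2 profiles over the 9 libraries, each centred on its mean, and it was 0.0712 for Arc, 0.0826 for Gjb1, 0.0830 for Kcnip1, 0.102 for Klk8 and 0.105 for Cdh4. These profiles include the step between genotypes, so genes of like fold change score as alike. In that order the log2 fold changes were 0.77, 0.84, 0.83, 0.81 and 0.89, beside 0.82 for Vgf. Shared regulation was not tested. Arc encodes a synaptic protein induced by activity, Gjb1 a connexin of myelinating cells, Kcnip1 a potassium channel partner, Klk8 a secreted protease and Cdh4 a cadherin. The signal of Arc was 3041, 2362, 2851 and 2273 in mutants and 1525, 1311, 1550, 1556 and 1765 in controls, with the same high and low mutant libraries as Vgf.

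Among 7 other convertases of the family 6 were tested, 1 rose and 1 fell, around a median log2 fold change of 0.06. Pcsk6, which encodes the secreted convertase PACE4, ran from 680 to 747 in mutant and from 422 to 500 in control libraries, a log2 fold change of 0.61 (SE 0.08, limma adjusted p = 0.00425). Pcsk5, which encodes PC5/6, ran from 204 to 221 and from 264 to 310, a log2 fold change of -0.44 (SE 0.10, limma adjusted p = 0.0396). The groups did not overlap for either gene. Pcsk6 missed the threshold without Nestin;BrafKE/+ replicate 1 (adjusted p = 0.0594), and Pcsk5 passed in 1 of 9 such refits, with adjusted p-values from 0.0495 to 0.133.

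The later steps of peptide maturation and release were followed in a pair of lists. Of 13 genes for trimming and amidation 12 were tested and 0 passed by limma, 3 had an unadjusted p under 0.05, around a median log2 fold change of 0.02. The most abundant of them, Ctsb, which encodes the protease cathepsin B, had a log2 fold change of 0.12 (limma adjusted p = 0.238). All 20 dense-core vesicle genes were tested, of which 1 rose and 1 fell and 4 had an unadjusted p under 0.05, with a median log2 fold change of 0.04. Baiap3, a gene of vesicle trafficking and exocytosis, ran from 210 to 451 in mutant and from 106 to 189 in control libraries (log2 fold change 1.18, SE 0.26, limma adjusted p = 0.0425). Syt4, a synaptotagmin found on peptide vesicles, ran from 2342 to 2728 and from 2962 to 3406 (log2 fold change -0.28, SE 0.07, limma adjusted p = 0.0474). Baiap3 passed in 2 and Syt4 in 0 of 9 refits with a library omitted, with limma adjusted p-values from 0.00973 to 0.240 and from 0.0565 to 0.238.

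Among genes for peptide precursors, the kind of cargo these enzymes cut, 4 passed the test. Of 21 neuropeptide precursor genes 19 were tested, 3 rose and 1 fell, around a median log2 fold change of 0.11. An unadjusted p under 0.05 was reached by 8 of the 19, beside 18.5% of all genes. The number that passed was 6 with a mean of at least 50, 7 without a series term and 3 with the 4 name prefixes. Grp, the gastrin-releasing peptide gene, ran from 642 to 705 in mutant and from 275 to 405 in control libraries (log2 fold change 1.08, SE 0.12, limma adjusted p = 0.00193). Npy, the neuropeptide Y gene, ran from 979 to 1194 and from 482 to 578 (log2 fold change 1.01, SE 0.09, limma adjusted p = 0.00105). Cort, which encodes cortistatin of a class of interneurons, had a log2 fold change of 0.76 (SE 0.14, limma adjusted p = 0.0210). Pdyn, the precursor of dynorphins and one of the classic substrates of Pcsk2, ran from 86.3 to 105 in mutant and from 170 to 210 in control libraries (log2 fold change -0.93, SE 0.13, limma adjusted p = 0.00548). Grp and Npy passed whichever library was left out. The call for Pdyn was lost without Nestin;BrafKE/+ replicate 1 (adjusted p = 0.0674), and that for Cort without Nestin;BrafKE/+ replicates 1 or 3 or Braf+/+ replicate 4 (adjusted p up to 0.130). Of 4 proposed receptors for Vgf and proSAAS peptides 3 were tested and 0 passed by limma, also at an unadjusted p under 0.05. The most abundant of them, C1qbp, had a log2 fold change of 0.04 (limma adjusted p = 0.760).

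Genes regulated by neuronal activity or by ERK signalling were followed in 2 lists. Of 12 activity-regulated genes 2 rose and 2 fell, with a median log2 fold change of 0.04. Arc (log2 fold change 0.77, SE 0.11, limma adjusted p = 0.00707) and Nptx2, a secreted synaptic pentraxin (0.53, SE 0.10, limma adjusted p = 0.0187), were higher. Inhba, an activin subunit (-1.08, SE 0.17, limma adjusted p = 0.00976), and Fos, the immediate early transcription factor (-0.67, SE 0.15, limma adjusted p = 0.0457), were lower. Of 14 genes that ERK signalling induces, most of them its own brakes, 10 rose and 0 fell, with a median log2 fold change of 0.54. The largest rises among them were those of Dusp6 (0.99), Dusp4 (0.95), Spry4 (0.87), Ccnd1 (0.83) and Spred3 (0.64), with limma adjusted p-values of 0.000325, 0.00106, 0.00483, 0.00177 and 0.00261. The call for Arc was lost without Nestin;BrafKE/+ replicate 1 or Braf+/+ replicate 4 (adjusted p up to 0.0742), that for Inhba without Braf+/+ replicate 4 (0.0662), that for Spry4 without Nestin;BrafKE/+ replicate 1 (0.0682), that for Nptx2 without Nestin;BrafKE/+ replicates 1 or 3 or Braf+/+ replicate 4 (up to 0.128) and that for Fos in 8 of 9 refits (up to 0.143).

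**Figure D4:**
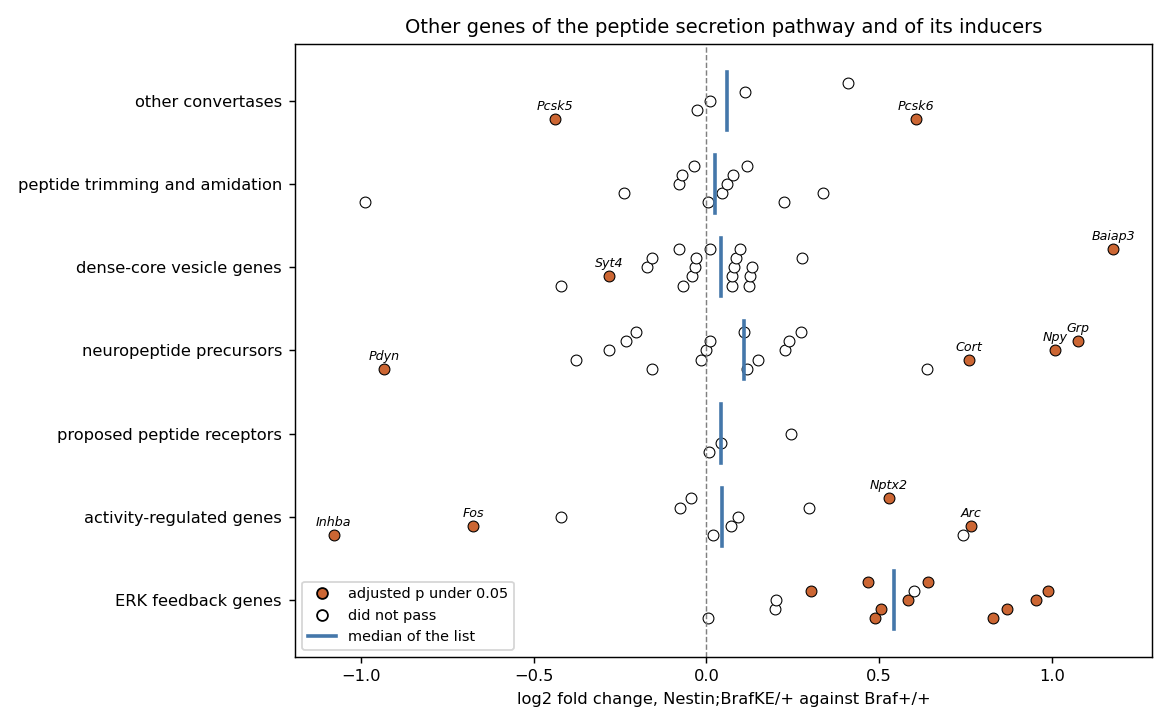
Log2 fold change between Nestin;BrafKE/+ and Braf+/+ libraries of the tested genes in 7 lists (1 circle per gene, filled where the adjusted p was under 0.05, vertical position within a list without meaning) with the median of each list as a bar. The ERK feedback list has its median at 0.54, and the 6 other lists have medians between 0.02 and 0.11.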

How the data were processed

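Total RNA of dissected hippocampus was made into stranded mRNA libraries (TruSeq). Per the labels and the study's methods, the authors used Trim Galore, STAR and Salmon on GRCm39, normalised with DESeq2 and adjusted for batches in their own test, and deposited a table of normalised signal per gene. The rows of the 10 genes were taken by symbol. The test was limma 3.58.1 (R 4.3.3, eBayes with a trend), run where the mean was at least 10, on log2(value + 1). Its terms were genotype and series, with Benjamini-Hochberg adjustment over all genes tested. The 3 series were made here from the 4 name prefixes by pooling the numeric ones. Fold changes on that scale understate the change of low genes. In each library all values were whole multiples, within 0.01 of a step, of a step of 0.9934 to 1.004. Steps so near 1 were not accepted as proof of recovered reads, and whether the whole numbers behind them were already adjusted for batches is not given in the sources used here, so no count model was fitted and no counting interval is given. Exact permutation tests were two-sided. Levels per length used canonical transcripts of Gencode vM39. The members and lists were chosen with earlier results of these data known. Named from each list were the genes past the threshold, at most 5 by size of change, and otherwise the gene of the largest mean, with the 5 genes most alike to Vgf. Oxt and Prl and the neuronal, astrocyte, CA1, dentate and oligodendrocyte markers were named after their values were seen. The scripts were tested on simulated data. Libraries of equal replicate number had correlations of deviations of -0.390, -0.0779, 0.0686 and 0.415, which cannot decide whether equal numbers mark pairs. A planned count of cleavage sites in protein sequences was not done, because the protein sequences it needs were not among the references used here. Alternatives were another pseudocount, filter, scaling or batch term and leaving out each library.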

Additional observations from a re-analysis of the deposited data

How the results depend on the processing

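Vgf, Pcsk2 and Cpe passed under all 9 settings that kept every library and Pcsk1 under 8 of them. The number of genes past the threshold was 466, and became 2260 without a series term, a fit that allows for no differences between series. It was 165 with the 4 name prefixes as the batch term, where the pathway lists held 14 such genes in place of 22. Leaving out 1 library at a time gave 42 to 369 genes, 1 to 5 of the 10 members and 8 to 20 pathway genes. The lowest values came without Nestin;BrafKE/+ replicate 1 (42 genes, 2 members, 8 pathway genes) and without Braf+/+ replicate 4 (97 genes, 1 member, 11 pathway genes). Counts also fell by more than 1.5 times without Nestin;BrafKE/+ replicate 3 (165 genes, 13 pathway genes) and without Braf+/+ replicate 1 (281 genes), and 2 members passed without Nestin;BrafKE/+ replicate 4 or Braf+/+ replicate 5. A fit with fewer libraries has fewer residual degrees of freedom. Without Nestin;BrafKE/+ replicate 1 series A has no mutant, and without Braf+/+ replicate 4 series B has no control. Without either library of series C only 1 genotype is left there. Such a series adds nothing to a genotype difference fitted with a series term. All calls lost for Pcsk1, Pcsk2 and Cpe on omission of 1 library were lost in these fits. The part of either point in the counts, and other causes, were not tested. Chga, which was not called, ranged over such fits from -0.046, a reversed sign, without Braf+/+ replicate 4 (limma adjusted p = 0.841) to 0.12 without Nestin;BrafKE/+ replicate 4. The promoter count was 3 for TGACGTCA and 7 for TGACG. The planned count test was not run on these values.

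With the replicate number as a block in place of the series, 1405 genes, 4 members and 27 pathway genes passed. Only 1 of the 4 mutant libraries correlated best with the control of its own number. The deviations used for this also hold the mirroring in series C, so they cannot decide whether equal numbers mark pairs.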

Other observations

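Markers of the hippocampal fields were also compared between genotypes, with the same limit of bulk samples. Of 4 CA1 markers 2 rose, namely Wfs1 (log2 fold change 0.61, limma adjusted p = 0.000371) and Fibcd1 (0.40, limma adjusted p = 0.0182). Mpped1 (0.11) and Pou3f1 (0.00) did not pass. The sum of all 4 ran from 12777 to 13441 in mutant and from 10331 to 10803 in control libraries. Of 4 dentate granule cell markers 1 fell, which was Dsp (log2 fold change -0.78, limma adjusted p = 0.0106). Prox1 was at -0.05 (limma adjusted p = 0.692), and C1ql2 (0.04) and Tdo2 (0.05) did not pass either. The dentate sum ran from 3522 to 3945 in mutant and from 3769 to 4386 in control libraries. Of 4 CA3 markers 0 passed by limma and 1 had an unadjusted p under 0.05, and their sum ran from 2392 to 2861 against 2173 to 2745. The oligodendrocyte markers that rose were Mobp (0.58), Mog (0.53) and Mag (0.41), with limma adjusted p-values of 0.0253, 0.0278 and 0.0457.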
